A study of Mus musculus with 10 samples.

Results

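The genes described are those of the mouse cytosolic ribosomal proteins, the protein parts of the ribosomes that translate nuclear-encoded mRNA. They were taken by name: every non-control probe whose gene name in the array files is a ribosomal protein symbol of the large or small subunit, including the acidic stalk proteins and close paralogues. The rule found 83 genes with 191 probes, of 34832 gene names and 55681 probes on the array. Each gene was given 1 value, from its probe of highest mean signal over the 10 arrays. 82 of the 83 genes were tested, and Rpl3l, the muscle paralogue of Rpl3, was well above background on no array. The family was chosen because Rps27a and Rpl31 stood out in FoxA2-Cre hybrids in an earlier look at these arrays, so the values of these 2 genes in that contrast are a description and are given with no test.

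All recipients were mice injected with the neurotoxin MPTP, and RNA was taken from grafted cells recovered by sorting from their midbrain. Haematopoietic stem and progenitor cells (HSPCs), taken as lineage-negative bone marrow cells, were placed on one side of the brain 3 days after the last MPTP injection. Cells were dissociated and sorted 1 week later, 2 mice were pooled for each replicate, and the RNA was amplified as whole transcriptomes before Cy3 labelling for 1-colour arrays. Red and yellow (RFP+YFP+) cells are called hybrids, that is graft cells fused with a recipient cell, and red-only (RFP+) cells are called unfused. There were 5 groups of 2 arrays, all from MPTP-treated recipients. R26Y hybrids came from recipients with the R26Y reporter that received Cre/RFP HSPCs. GFAP-Cre hybrids and FoxA2-Cre hybrids came from recipients in which the Gfap promoter, active in astrocytes, or the Foxa2 promoter, active in ventral midbrain cells, drives Cre, and these received R26Y HSPCs. In these 2 recipient lines YFP marks only fusion with a Cre-expressing cell, so red-only cells may include cells fused with others. Pooled unfused cells were red-only cells of R26Y and GFAP-Cre recipients together, and FoxA2-Cre unfused cells were red-only cells of FoxA2-Cre recipients.

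A ribosome joins a small subunit, which reads the mRNA, to a large subunit, which forms the peptide bond. The subunit proteins are needed in equal numbers, and their mRNAs, which are short and among the most abundant of most cells, carry a pyrimidine tract at their 5′ end through which mTOR signalling sets their translation together. In blood stem and progenitor cells the rate of protein synthesis is tightly held, and mutations in several of these genes cause the anaemia of Diamond-Blackfan syndrome.

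The probes on which the FoxA2-Cre results turn are shown here, because probes of one gene often read differently. Capital letters mark bases within a stretch of at least 20 that a probe of another gene name also holds, and the number after each symbol is the probe's position on its transcript. The array files give both the sequences and the positions, on mouse build mm9; no gene models of that build were used here, so exons and UTRs are not stated.
Rps27a, 689, chr11:29445914-29445973, minus strand: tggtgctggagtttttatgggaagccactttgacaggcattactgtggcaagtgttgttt
Rps27a, 761, chr11:29445842-29445901, minus strand, first 30 bases: caacaaaccagaagacaagtagttgtgtat
Rpl31, 374, chr1:39425070-39426887, plus strand: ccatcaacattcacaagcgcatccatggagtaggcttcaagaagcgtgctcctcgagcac
Rpl31, 245, chr1:39427800-39427861, plus strand, first 30 bases: aacgttccatattgcatccgagtacgcttg
Rpl9, 568, chr5:65779821-65779879, minus strand: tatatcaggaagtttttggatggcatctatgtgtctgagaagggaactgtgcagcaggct
Rps28, 191, chr17:33960058-33960197, minus strand: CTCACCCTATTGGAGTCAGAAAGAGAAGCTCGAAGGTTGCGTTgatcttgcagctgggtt
Rps23, 222, chr13:91063336-91063974, plus strand: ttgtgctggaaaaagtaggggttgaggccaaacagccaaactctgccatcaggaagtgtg
Rpl10, 627, chrX:71518307-71518366, plus strand: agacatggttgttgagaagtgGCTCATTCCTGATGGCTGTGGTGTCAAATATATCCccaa
All probes are 60 bases long. Those of Rpl31 (position 374), Rps23 and Rps28 cover 1818, 639 and 140 bases of the genome, more than their own length. The Rps28 probe shares 43 of its bases and the Rpl10 probe 35 with probes of other gene names, and the other 6 share none.

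Levels below are log2 signals relative to the 75th percentile of the same array, so 0 is a bright spot and not absence. The share of all spots well above background ran from 64.3% to 86.7% on the 6 arrays of slide 1 (R26Y hybrids, pooled unfused cells and GFAP-Cre hybrids) and from 19.8% to 49.2% on the 4 FoxA2-Cre arrays of slide 2. Recipient line and slide cannot be told apart, so each comparison was made within a slide. On slide 2 the hybrids lie in row 1 and the unfused cells in row 2, and within that slide row and cell state cannot be told apart. Of 6 blood cell markers tested, all 6 were well above background in both pooled unfused arrays, 6 and 5 in GFAP-Cre hybrids, and 6 in both R26Y hybrid arrays. In FoxA2-Cre hybrids 3 and 2 of them were, and in FoxA2-Cre unfused cells 4 and 3. The array file of FoxA2-Cre unfused replicate 2 carries in its name the sample number that the labels give to R26Y hybrid replicate 2; the labels were followed, and the FoxA2-Cre and R26Y results below are given without each of these arrays as well. In RNA from many cells, fewer cells of a type and less RNA per cell cannot be told apart.

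The ribosomal protein genes formed a tight, bright set on 5 of the 6 arrays of slide 1 and a scattered one elsewhere. Their median level was -0.085 and -0.54 in the 2 pooled unfused arrays and -0.21 and -0.24 in the GFAP-Cre hybrids. In the R26Y hybrids it was -0.36 in replicate 1 and -1.95 in replicate 2. In FoxA2-Cre hybrids it was -3.73 and -3.64, and in FoxA2-Cre unfused cells 1.29 and -1.63. Both FoxA2-Cre hybrid medians thus lay below both unfused ones, while the 2 unfused arrays stood far apart from each other. The number of the 82 genes well above background was 82 and 81 in pooled unfused cells, 82 and 81 in GFAP-Cre hybrids, 81 and 71 in R26Y hybrids, 75 and 61 in FoxA2-Cre unfused cells, and 54 and 36 in FoxA2-Cre hybrids.

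**Figure D1:**
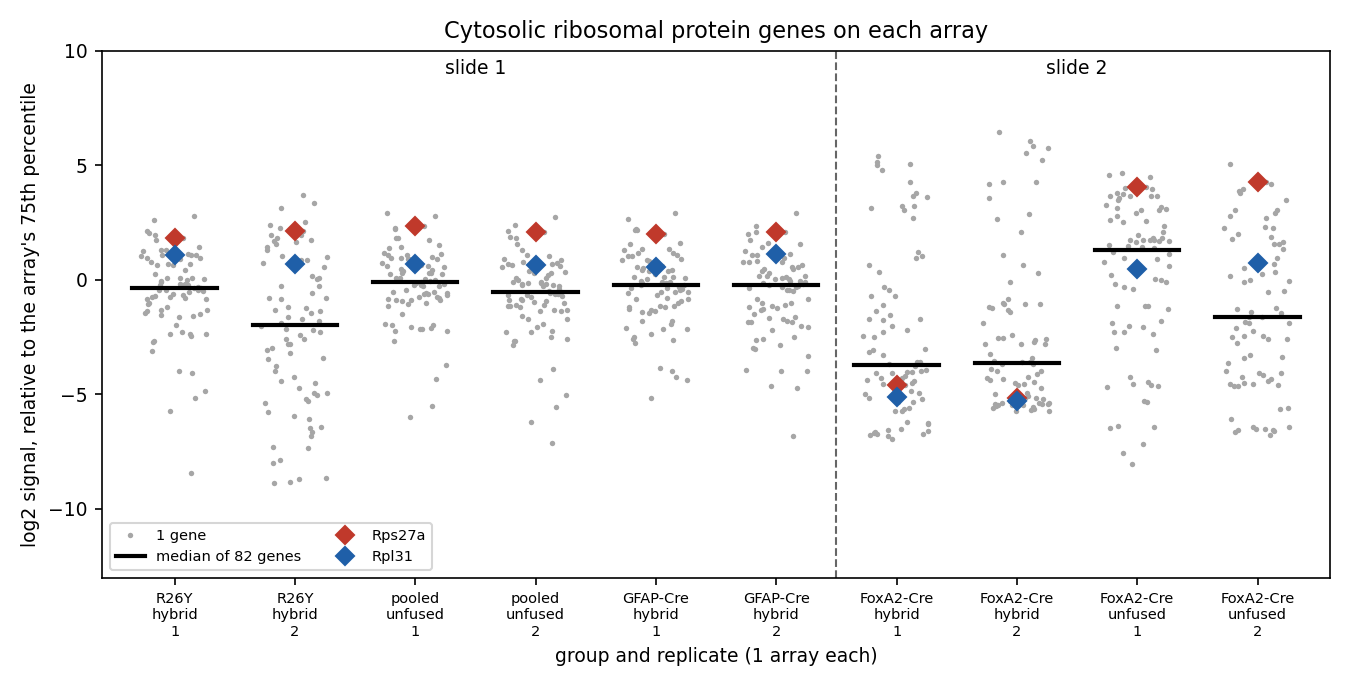
Level of each of the 82 tested genes (grey points) on each of the 10 arrays, in log2 signal relative to the array's 75th percentile. Black bars are medians over the genes, diamonds are Rps27a and Rpl31, and the dashed line parts the 2 slides. Rps27a lay near 4 in both FoxA2-Cre unfused arrays and near -5 in both FoxA2-Cre hybrid arrays, while the family's medians in the unfused arrays were 1.29 and -1.63.

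The family varied between the 2 replicates of a group far more in some groups than in others. In pooled unfused cells the replicates of a gene differed by a median of 0.39 and in GFAP-Cre hybrids by 0.26, and no member differed by more than 3. In R26Y hybrids the median gap was 2.38, and 33 of 82 members (40.2%) differed by more than 3, against 16.1% of all genes tested. In FoxA2-Cre hybrids the median gap was 1.41 with 25 members (30.5%) over 3, against 6.26% of all genes. In FoxA2-Cre unfused cells it was 1.59 with 33 members (40.2%) over 3, against 8.65% of all genes. A gap of 3 is 8-fold, so a ribosomal protein gene was often bright on one array of a group and near background on the other.

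**Figure D2:**
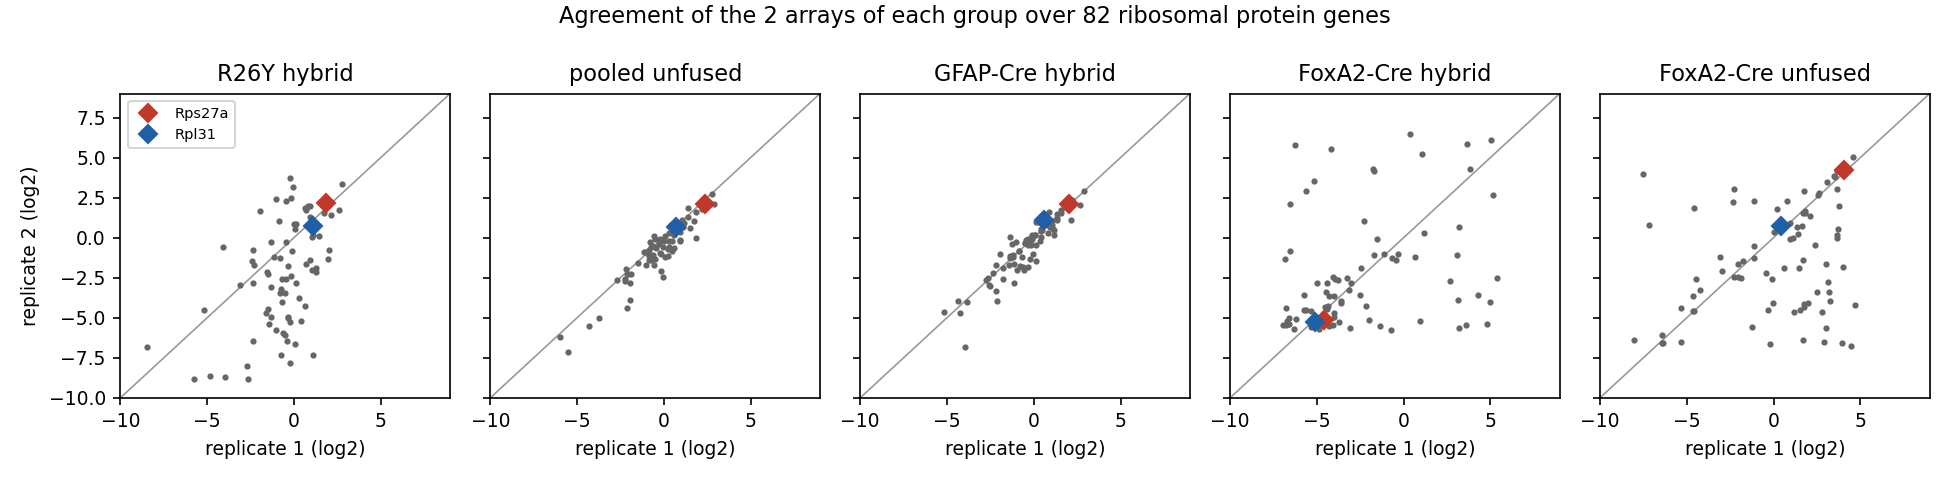
Level of each of the 82 genes in replicate 2 against replicate 1 of the same group, in log2 signal relative to the array's 75th percentile, with the line of equality. Points hug the line in pooled unfused cells and GFAP-Cre hybrids (Spearman's rho 0.90 and 0.92 across genes) and scatter in R26Y hybrids, FoxA2-Cre hybrids and FoxA2-Cre unfused cells (0.50, 0.34 and 0.24).

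Some genes with the widest gaps were singled out after their values were seen. Rps12, a small-subunit protein, read 1.12 in R26Y hybrid replicate 1 and -7.32 in replicate 2. Rps27 read -6.24 and 5.77 in the 2 FoxA2-Cre hybrid arrays. Rpl23 read -7.55 and 3.97 in the FoxA2-Cre unfused arrays, and 4.78 and -5.36 in the hybrids, so that both groups held one bright and one dim array. R26Y hybrid replicate 2 stood apart from its slide. Only 25 of its 82 members lay within 1 of the pooled unfused mean, as did 49.3% of all genes. More than 3 below that mean lay 29 members, as did 12.4% of all genes. On R26Y hybrid replicate 1 and the 2 GFAP-Cre hybrid arrays, 78, 81 and 73 members lay within 1. The pooled unfused arrays make up the mean and are no benchmark for it.

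The comparison of FoxA2-Cre hybrids with FoxA2-Cre unfused cells asks how transcripts differ between graft cells that fused with a Cre-expressing cell of this line and those that did not. Most of the family read lower in the hybrids: 58 of 82 members were below 0 and 24 above, with a median of -1.99, against a median of 0.36 over all 32077 genes tested, of which 36.5% were below 0. Without Rps27a and Rpl31 the median was -1.94. The size of the median turned on single arrays: without FoxA2-Cre unfused replicate 1 it was -0.77 with 47 members below 0, and without replicate 2 it was -2.29 with 60 below 0. Without hybrid replicate 1 or 2 it was -1.995 or -2.39, and with a block for the row on the slide -0.995. Because row and cell state coincide on slide 2, that row effect was set by slide 1 alone. Relative to all genes the family's median was thus -2.36, and under the 5 other scalings and background corrections it lay between -2.36 and -1.26. Of all genes tested, 46.1% and 28.6% were well above background on the hybrid arrays, and 62.1% and 46.8% on the unfused arrays. For the members these shares were 65.9% and 43.9%, and 91.5% and 74.4%. Genes near background thus enter the values of all genes, and the family was not compared with equally bright genes. In 26 of the 80 members other than Rps27a and Rpl31 both hybrid arrays lay below both unfused arrays, as in 10.6% of all genes, and in 8 both lay above, as in 26.5% of all genes. The same was counted over all 82 members, Rps27a and Rpl31 included, with 1 unfused array left out. Without FoxA2-Cre unfused replicate 2, both hybrid arrays lay below the remaining unfused array in 44 members, against 22.2% of all genes, and above it in 15, against 50.2%. Without replicate 1 they lay below it in 32 members, against 25.2% of all genes, and above it in 21, against 38.7%.

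Rps27a encodes a small-subunit protein that is made as a fusion with ubiquitin and then cleaved, so that the gene supplies both. Its level was 4.05 and 4.25 in FoxA2-Cre unfused cells and -4.59 and -5.16 in the hybrids. The groups were far apart, and each pair of replicates was close, at 4.15 ± 0.14 and -4.88 ± 0.40 (SD, n = 2). The difference was -9.03 ± 0.48 (SE), -8.93 without FoxA2-Cre unfused replicate 2, and only 1 of the 2 hybrid arrays was well above background, so no fold is given. Rpl31 encodes a large-subunit protein at the exit of the tunnel through which the new chain leaves. Its level was 0.45 and 0.72 in unfused cells and -5.13 and -5.29 in hybrids. Here too the groups did not overlap, and the probe was well above background in neither hybrid array. The difference of -5.80 ± 0.49 (SE), -5.66 without unfused replicate 2, is therefore a bound, at least 55.5-fold lower on the scanner's processed signal. It was computed by setting each hybrid array to the higher of its own signal and the lowest signal called above background there. With normexp background correction, given below, the difference was smaller than this bound.

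Of the 80 other members, 4 fell at an adjusted p under 0.05 (limma, Benjamini-Hochberg over all genes tested) and none rose. Of all genes 0.539% passed, 0.486% lower and 0.053% higher. Rps27a and Rpl31 are left out of this count, since they had led to the choice of the family. The 4 belong to both subunits. Rpl9, a large-subunit protein, was at 2.08 and 1.36 in unfused cells and at -5.19 and -5.41 in hybrids, where it was above background on neither array. It fell by 7.02 ± 0.77 (SE) on the log2 scale, at least 130-fold on the processed signal (limma, adjusted p = 0.0124). Over all settings its difference ran from -7.38 to -3.97, so the bound does not hold in each of them. Rps28, a small-subunit protein near the mRNA exit, was at 1.12 and -0.04 in unfused cells and at -6.61 and -5.38 in hybrids, again above background on neither. It fell by 6.53 ± 0.88 (SE), at least 92.7-fold on the processed signal (limma, adjusted p = 0.0278). With normexp background correction it read -2.80, so the bound does not hold there.

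Rps23, which lies at the decoding centre of the small subunit, was at 3.098 and 3.50 in unfused cells and at -3.02 and -2.80 in hybrids. It fell by 6.21 ± 0.90 (SE), or 73.9-fold (limma, adjusted p = 0.0376). Rpl10, one of the last proteins to join the large subunit, was at 4.57 and 5.03 in unfused cells and at 0.63 and -1.19 in hybrids. It fell by 5.09 ± 0.72 (SE), or 33.9-fold (limma, adjusted p = 0.0345). In both genes the hybrid arrays lay below the unfused arrays but remained above background, so these folds are measured on both sides.

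The calls rest on the spread borrowed from the other groups. When the FoxA2-Cre arrays were fitted alone no gene of the array passed in limma, the 4 members had adjusted p between 0.136 and 0.279, and 13 of the 80 had an unadjusted p under 0.05, where 4.38% of all genes did. A block for the row or for the column on the slide also left no gene past the threshold (limma), with 6 and 11 of the 80 at an unadjusted p under 0.05, where 7.28% and 4.16% of all genes were. With the row block the members' share was near that of all genes. That block takes its row effect from slide 1 alone, so it cannot part row from cell state on slide 2. Leaving out any one of the pooled unfused or GFAP-Cre arrays left 1 call among the 80 (0.187% of all genes), and leaving out either R26Y hybrid array gave 6 (0.835%). In fits without FoxA2-Cre unfused replicate 2 or 1, the lone unfused array is assumed to vary like the other groups. No count of calls is given for these fits. In the fit without replicate 2, Rpl9 read -7.38 and Rps28 -7.11 and both passed, while Rps23 at -6.01 and Rpl10 at -4.86 did not (limma, adjusted p = 0.0686 and 0.0633). Averaging the probes of each gene gave 2 calls (0.383% of all genes). Removing probes with shared sequence gave 1 among the 62 other members left (0.212%). On the average of its probes Rpl31 read -1.001. Normexp background correction gave -2.80 for Rps28, which then did not pass, and -2.78 for Rpl31.

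**Figure D3:**
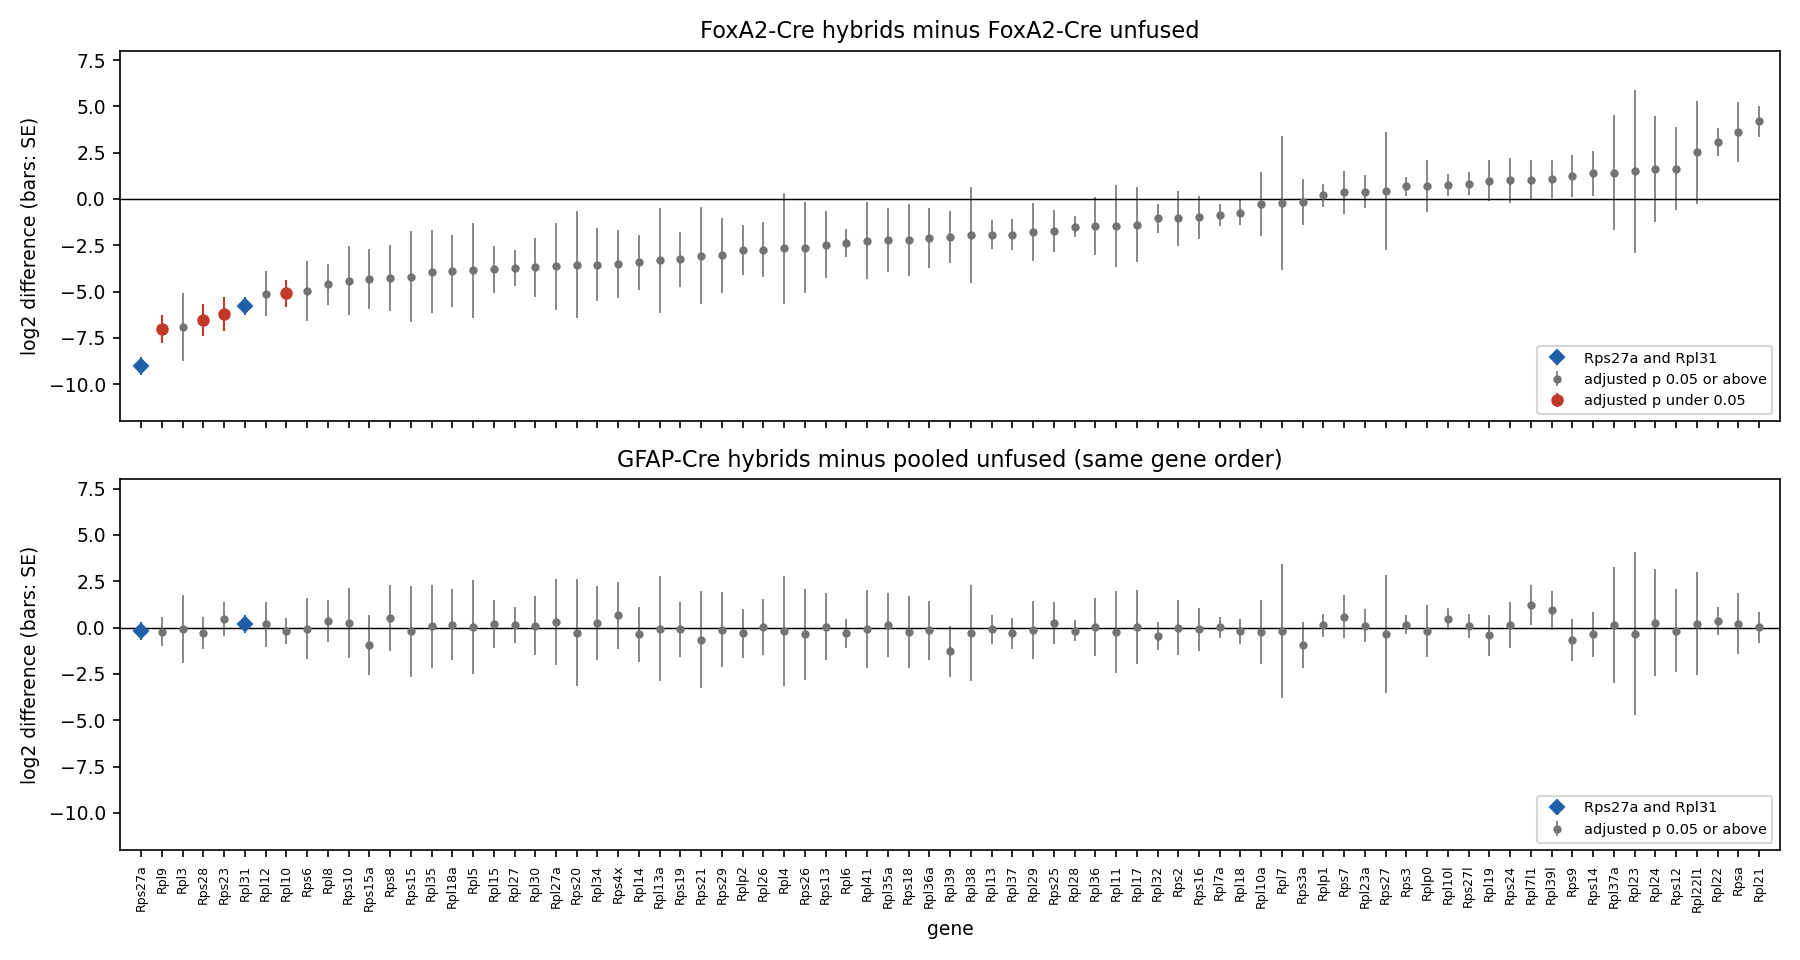
Log2 difference of 79 of the 82 members with its SE in FoxA2-Cre hybrids against FoxA2-Cre unfused cells (upper panel, ordered) and in GFAP-Cre hybrids against pooled unfused cells (lower panel, same order). Blue diamonds are Rps27a and Rpl31, red points are the 4 other members with an adjusted p under 0.05, and the lower panel stays between -1.29 and 1.21.

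By role, 36 of 43 large-subunit genes and 21 of 31 small-subunit genes were below 0, with medians of -2.10 and -2.46. The 3 stalk genes, whose products recruit the elongation factors, had a median of 0.21. The 5 paralogues, Rpl10l, Rpl22l1, Rpl39l, Rpl7l1 and Rps27l, which are close relatives of core proteins, were all above 0, with a median of 1.03, and none passed. Of their chosen probes, those of Rpl39l and Rpl7l1 were well above background on none of the 4 FoxA2-Cre arrays, that of Rps27l on 1, and those of Rpl10l and Rpl22l1 on 1 array of each group. The lowest signal called above background was itself higher on the hybrid arrays (-6.65 and -5.73) than on the unfused arrays (-7.45 and -6.58), so these differences do not show that the paralogues were higher. Over the 80 other members 17 were lower at an unadjusted p under 0.05 and 2 higher, where 3.84% and 4.81% of all genes were (8.66% in either direction).

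The members that read higher in FoxA2-Cre hybrids did not pass the threshold. Rpl21 was at 3.202 and 0.64 in hybrids and at -2.06 and -2.46 in unfused cells, a difference of 4.19 ± 0.84 (SE; limma, adjusted p = 0.132). Rpl22, an RNA-binding protein of the large subunit whose paralogue is Rpl22l1, was at 3.67 and 5.82 against 1.81 and 1.55, a difference of 3.06 ± 0.76 (SE; limma, adjusted p = 0.261). Rpsa, which also serves as a laminin receptor, was at -1.77 and 4.27 against -2.26 and -2.44. Its 2 hybrid arrays were more than 6 apart on the log2 scale, and its adjusted p was 0.591 (limma). The next 3 by p were Rps3, Rpl10l and Rps27l, with differences of 0.68, 0.77 and 0.83 and adjusted p of 0.701, 0.705 and 0.705 (limma). Rps3, at the mRNA entry, was among the steadiest of the family by its chosen probe, at 3.80 and 4.29 in hybrids and 3.67 and 3.07 in unfused cells.

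GFAP-Cre hybrids, set against pooled unfused cells, put the same question to recipients with Cre under the Gfap promoter. The family's differences were small: their median was -0.057, against 0.034 over all genes, 43 members were below 0 and 39 above, and the members ran from -1.29 to 1.21. No member and no gene passed in limma (0% of all genes), and 0 members had an unadjusted p under 0.05, where 1.63% of all genes did (0.789% lower and 0.839% higher). In 7 members both hybrid arrays lay below both pooled unfused arrays, as in 14.4% of all genes, and in 14 both lay above, as in 19.9%. Both shares of members were below or near those of all genes. Rps27a read 2.36 and 2.10 in pooled unfused cells and 2.01 and 2.09 in GFAP-Cre hybrids, a difference of -0.18 ± 0.48 (SE). Rpl31 read 0.70 and 0.65, and 0.56 and 1.13, a difference of 0.17 ± 0.49 (SE). The Rps27a arrays of the groups did not overlap and those of Rpl31 did, and both differences were smaller than their errors.

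Members with the smallest p in that comparison, none of which passed (limma, adjusted p = 1.00 for each), included 3 paralogues on the higher side. Rpl7l1 differed by 1.21, Rpl39l by 0.93 and Rpl10l by 0.44, followed by the core genes Rps7 (0.59), Rps23 (0.46) and Rpl22 (0.35). On the lower side were Rpl39 (-1.29), Rps3a (-0.93), Rps9 (-0.66), Rpl32 (-0.45) and Rps15a (-0.93).

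R26Y hybrids were set against the same pooled unfused arrays, so the 2 comparisons share their controls. The family's median was -0.87, against -0.26 over all genes, 57 members were below 0 and 25 above, and none passed in limma (0% of all genes, with 0 members and 1.4% of all genes at an unadjusted p under 0.05, 1.12% lower and 0.274% higher). In 9 members both hybrid arrays lay below both pooled unfused arrays, as in 19.5% of all genes, and in 8 both lay above, as in 10.5%. That median rests on replicate 2: without it the median was -0.018. Without replicate 1, when the lone array is assumed to vary like the other groups, the median was -1.35 and 7 members were called lower, namely Rpl3, Rpl36a, Rplp0, Rps12, Rps19, Rps23 and Rps7. In that fit 7.19% of all genes were called, so the members' share was near that of the array.

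With both replicates, the lower members of smallest p were Rps12 (-4.51 ± 2.22), Rps19 (-2.68 ± 1.49), Rpl3 (-3.17 ± 1.82), Rplp0 (-2.41 ± 1.42), Rps18 (-3.31 ± 1.95) and Rpl9 (-1.22 ± 0.77; log2 difference ± SE, limma adjusted p = 1.00 for each). Rps19 is the gene most often mutated in Diamond-Blackfan anaemia. It read -2.72 and -7.98 in R26Y hybrids against -2.68 and -2.66 in pooled unfused cells, so replicate 1 lay beside the controls and replicate 2 far below. The higher members of smallest p were Rpl23a (1.24), Rps28 (1.09), Rps9 (1.13), Rpl21 (0.77) and Rpl15 (0.94). Rps27a read 1.84 and 2.15 in R26Y hybrids, a difference of -0.24 ± 0.48 (SE), and Rpl31 read 1.07 and 0.71, a difference of 0.21 ± 0.49 (SE). By these probes both stayed near the pooled unfused level in replicate 2 as well, but the Rpl31 probe at position 245 read -8.71 there, against -0.86 and -1.21 in pooled unfused cells.

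Between the hybrid types of slide 1, the family read higher in GFAP-Cre than in R26Y hybrids by a median of 0.64, against 0.29 over all genes, with 58 members above 0 and 24 below. None passed in limma (0% of all genes, with 0 members and 2.76% of all genes at an unadjusted p under 0.05, 0.658% lower and 2.1% higher). In 15 members both GFAP-Cre arrays lay above both R26Y arrays, as in 20.1% of all genes, and in 5 both lay below, as in 7.5%. The values again turned on R26Y replicate 2: without replicate 1 the median was 1.47 with 7 members called higher, where 6.76% of all genes were called, and without replicate 2 it was -0.012 with none. Higher in GFAP-Cre hybrids by smallest p were Rpl7l1 (2.39), Rpl39l (2.23), Rps7 (2.42), Rps23 (1.81), Rps12 (4.34) and Rps19 (2.59). Lower were Rps9 (-1.79), Rps28 (-1.38), Rpl23a (-1.15), Rpl21 (-0.75) and Rps15 (-1.68). Rps27a differed by 0.053 ± 0.48 (SE) and Rpl31 by -0.044 ± 0.49 (SE).

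The difference between the FoxA2-Cre hybrid effect and the mean of the other 2 hybrid effects was tested as an interaction. Over the family its median was -1.30, against 0.40 over all genes, with 59 members below 0 and 23 above. With each array left out the median ran from -1.93 to -0.47. With a block for the row on the slide, an effect set by slide 1 alone, it was -0.32. For Rps27a it was -8.82 ± 0.64 and for Rpl31 -5.99 ± 0.64 (log2, SE); these values led to the choice of the family and carry no test. Of the 80 other members none passed in limma, where 0.0935% of all genes did (0.0811% lower and 0.0125% higher). At an unadjusted p under 0.05, 8 of the 80 were lower and 2 higher, where 2.25% and 3.38% of all genes were (5.63% in either direction). The nearest were Rpl9 (-6.30 ± 1.02, adjusted p = 0.120), Rps28 (-6.93 ± 1.17, adjusted p = 0.140), Rpl10 (-4.63 ± 0.96, adjusted p = 0.289) and Rps23 (-5.76 ± 1.20, adjusted p = 0.292). On the higher side were Rpl21 (3.79), Rpl22 (2.77), Rpsa (3.13), Rps12 (3.98), Rps14 (1.95) and Rpl19 (1.77), with limma adjusted p of 0.703 for Rpl21 and 0.835 for each of the others.

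The array holds several probes for most of these genes, and in the FoxA2-Cre arrays they often read differently. For the 60 members with at least 2 probes above background on 2 or more arrays, the FoxA2-Cre difference spanned a median range of 2.41 between a gene's probes, against 1.29 for 9686 other genes. In the GFAP-Cre comparison the same range was 0.43 for members and 0.71 for other genes. All probes of a gene lay below 0 in 25 members and above 0 in 6, and in 29 they fell on both sides. In 45.6% of the other genes all probes lay on one side, so the members differed from them in the size of the range more than in how often the sign was shared. In 25 of the 60 genes the range was more than 2 SE of the chosen probe. The chosen, brightest probes of these genes had a median difference of -2.16, and their 104 other probes one of -0.66, with 61 of the 104 below 0.

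**Figure D4:**
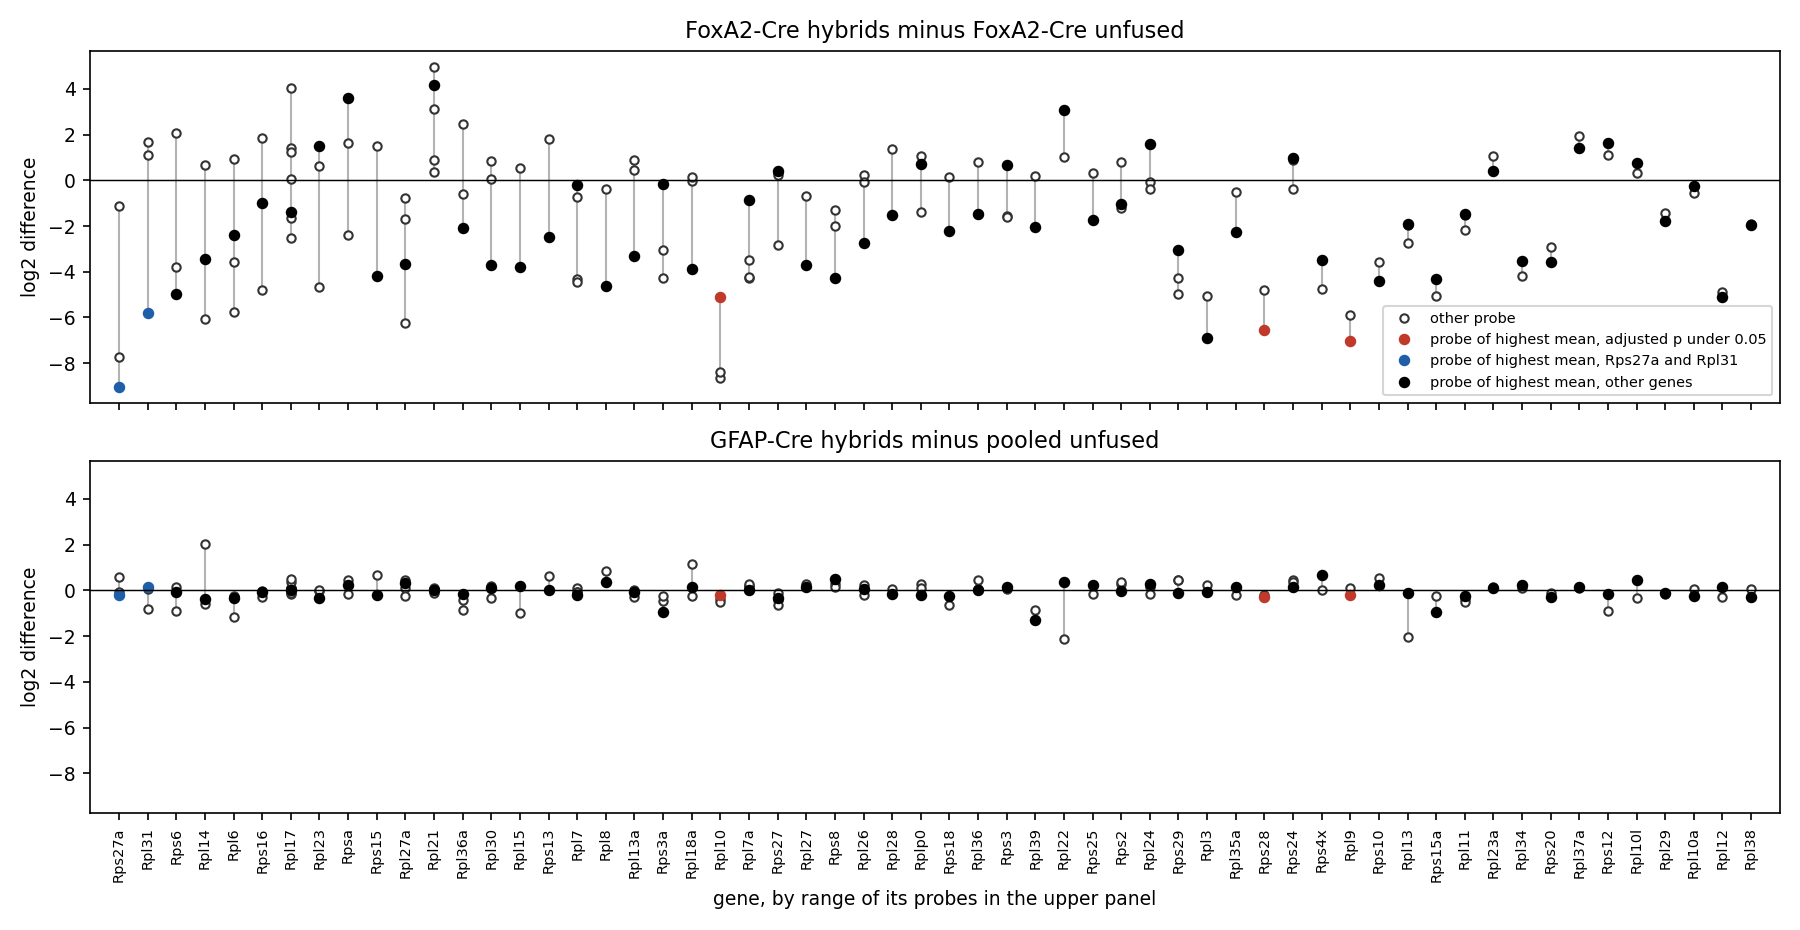
Log2 difference at each probe of 58 of the 60 members with 2 or more probes passing the filter, in FoxA2-Cre hybrids (upper panel) and GFAP-Cre hybrids (lower panel) against their unfused cells. Filled points are the probe of highest mean (blue for Rps27a and Rpl31, red for members with an adjusted p under 0.05), open points the others, and lines span each gene's range. Over all 60 members the median range was 2.41 in the upper comparison and 0.43 in the lower.

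The 2 genes that led to the family had the widest ranges of the 60. Rps27a has 3 probes. Those at positions 689 and 761, which do not overlap and whose sequences are given above, read -9.03 and -7.72, while the probe at position 42, near the 5′ end, read -1.14. At that 5′ probe the unfused arrays were at -4.95 and -2.30 and the hybrids at -5.50 and -4.02, so it was dim in both groups and the arrays overlapped. Rpl31 also has 3 probes, and of these only the one at position 374 was lower. The probe at position 245 of its own transcript record was higher by 1.67 and the one at 791 by 1.12, both dim, with unfused levels of -7.47 and -5.72, and of -4.64 and -4.01.

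Rps6, the target of S6 kinase, had probes at -4.96, -3.81 and 2.09. Rpl14 had -6.07, -3.42 and 0.65, and the first of these maps to chromosome 7 in the array files, where the gene itself lies on chromosome 9. Rpl6 spanned -5.78 to 0.95 over 4 probes and Rps16 -4.79 to 1.84 over 3. The narrowest ranges were those of Rpl38 (0.05), Rpl12 (0.24), Rpl10a (0.31) and Rpl29 (0.33). Close agreement between probes did not go with agreement between replicates. The 2 probes of Rpl38 read -4.19 and -4.50 in FoxA2-Cre hybrid replicate 1 and 5.54 and 5.65 in replicate 2. Rpl12 was at -3.16 and -3.24 in hybrids and at 3.66 and 0.18 in unfused cells by its chosen probe, a difference of -5.12 ± 1.22 (SE) with an adjusted p of 0.233 (limma).

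Probes of a gene were also paired by their listed positions, each on the transcript record of its own probe. These records may differ, and probes mapped to another chromosome were included, so a gap in position is not always a distance on the same transcript. On the genome the Rpl31 probe at position 245 lies downstream of that at 374. Pairs with listed positions under 60 bases apart differed by a median of 0.67 in the FoxA2-Cre difference (31 pairs of 20 genes). Pairs 60 to 149 bases apart differed by 2.07 (56 pairs), those 150 to 299 apart by 3.09 (31 pairs) and those 300 or more apart by 2.61 (49 pairs). In the GFAP-Cre comparison these medians were 0.15, 0.28, 0.26 and 0.36. When each probe was tested on its own, a choice made after the data were seen, 7 of 180 member probes, those of Rps27a and Rpl31 left out, were called lower and none higher in the FoxA2-Cre comparison (limma), where 0.344% of all probes were called and 0.308% lower. They included all 3 probes of Rpl10 (-5.09, -8.67 and -8.39) and one each of Rpl9, Rps23 and Rps28. Rpl9 has a second probe at -5.88 and Rps28 one at -4.81, while Rps23 has a single probe.

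Ribosomal protein genes have many processed pseudogenes, and their probes share sequence more than most. Of the 191 probes 88 (46.1%) hold a stretch of 20 bases that a probe of another gene name also holds, against 7.22% of all probes, and 40 of the 82 chosen probes do. For 27 probes, 10 of them chosen ones, the array files give a chromosome other than that of the RefSeq gene. Of the 5 Rpl21 probes that passed, the chosen one and one other map to chromosome 2 and another to chromosome 8, where the gene lies on chromosome 5. The 2 on chromosome 5 read 0.38 and 0.89, against 4.19, 4.97 and 3.12 for those elsewhere, so the higher reading of Rpl21 rests on probes mapped outside the gene. Of the 4 members that fell, Rpl10 and Rps28 have a chosen probe that shares sequence. None of the 4 has a chosen probe on another chromosome.

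Other genes of translation were read from lists of their own. Of the 9 other mRNAs with a terminal pyrimidine tract on the list, 6 were below 0 in FoxA2-Cre hybrids, with a median of -3.34, and none passed; Btf3, a nascent-chain factor, differed by -3.34 ± 1.00 (SE; limma, adjusted p = 0.396). The mean level of these 9 was -4.83 and -4.58 in hybrids, where 3 and 0 were well above background. In unfused cells it was -1.20 and -3.76, where 6 and 5 were, so the 2 unfused arrays stood apart. Medians of 4 further lists were above 0 in the same comparison, as was that of all genes at 0.36 with 63.5% above 0. They were 0.53 for 72 mitochondrial ribosomal proteins (48 above 0), 0.65 for 29 ribosome biogenesis genes (18 above 0), 0.27 for 31 initiation factors (17 above 0) and 0.60 for 9 elongation factors (7 above 0). No gene of these 5 lists passed in any of the 5 comparisons. In FoxA2-Cre hybrids 6 mitochondrial ribosomal proteins, 3 biogenesis genes, 2 initiation factors and no elongation factor had an unadjusted p under 0.05, where 8.66% of all genes did. Apart from the 9 other mRNAs listed for a pyrimidine tract, these lists thus lay near the values of all genes. Elongation factors were listed apart whether or not their mRNAs carry such a tract, so the lists do not separate mRNAs with the tract from those without.

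Neutrophil genes read lower in the FoxA2-Cre contrast, and also in the other 2 comparisons of hybrids with unfused cells. Of 8 neutrophil genes, 2 passed, where 0.539% of all genes did. Mpo fell by 7.89 ± 1.05 (SE; limma, adjusted p = 0.0257) and S100a9 fell by 8.60 ± 1.33 (SE; limma, adjusted p = 0.0468). Both were well above background on neither hybrid array, so these are bounds, at least 227-fold and 371-fold lower on the processed signal. Of the 8, 7 were below 0. Their mean level was -5.64 and -4.87 in FoxA2-Cre hybrids and -1.03 and -1.72 in unfused cells, with 2 and 1 of the 8 above background in hybrids and 6 and 5 in unfused cells. Both calls were lost when the FoxA2-Cre arrays were fitted alone. Against pooled unfused cells, all 8 neutrophil genes were below 0 in R26Y hybrids (median -1.67) and 6 were in GFAP-Cre hybrids (median -1.21), with none past the threshold. In the FoxA2-Cre comparison 6 of 8 microglia genes were above 0, where 63.5% of all genes were, and none passed. Their mean level was -2.22 and -1.59 in FoxA2-Cre hybrids and -3.77 and -2.77 in unfused cells, with 6 and 3 of the 8 above background in hybrids and 6 and 5 in unfused cells. The part of these cells in the ribosomal protein result was not tested.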

How the data were processed

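For each array the authors deposited one spot table, written by Agilent Feature Extraction 10.7.3.1 per the file headers. Its processed, mean and background signals are intensities, and 0 or 1 marks say, per the file headers, which spots were well above background. A deposited matrix of log2 values served as an alternative. Per the submitters' labels each replicate pooled 2 mice, and 500 ng of cDNA was labelled. Values were log2 of the processed intensity minus the array's 75th percentile of the spots that passed that mark on each of the 10 arrays. Outlier spots were left out, spots of a probe were averaged, and probes well above background on at least 2 arrays were kept. Group means were compared with limma 3.58.1 in R 4.3.3 (two-sided, 5 residual degrees of freedom, Benjamini-Hochberg over 32077 genes, threshold 0.05); the scripts were tested on simulated data. The number of arrays limits the precision, and p-values measure the spread between these pools. 171 of the 191 probes matched a RefSeq accession. The members, gene lists and tests were chosen with earlier results of these data known. Named were Rps27a and Rpl31, every member past the threshold, the 6 of smallest p per direction and comparison, the 6 widest and 4 narrowest genes by probe range, and up to 3 genes per other list. Some genes that this rule names are not reported here, and the plots of differences leave them out; counts and medians include them.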

Additional observations from a re-analysis of the deposited data

Results flagged for a closer look

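The hybrid effect on 2 members differed between recipient sets when the difference itself was fitted as an interaction. Rps27a differed by -8.82 and Rpl31 by -5.99 on the log2 scale, lower in FoxA2-Cre hybrids. Both values led to the choice of this family, so they are repeated here as descriptions. None of the 80 other members passed that comparison in limma, with or without a block for row, for column or for replicate number. With these blocks 5, 7 and 10 of the 80 had an unadjusted p under 0.05, where 8.72%, 1.72% and 5.2% of all genes did. The part of the slide in that comparison cannot be told apart from the recipient line.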

How the results depend on the processing

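Of 26 settings, Rpl9 was called lower in FoxA2-Cre hybrids in 22, Rpl10 in 14, and Rps23 and Rps28 in 12; none of the 4 changed sign. The counts by setting run over the members other than Rps27a and Rpl31, whose values chose the family and carry no test. The 4 called (0.539% of all genes) became 3 with normexp (0.359%) and 2 with averaged probes (0.383%). They fell to 1 without shared probes (0.212%) and to 1 with array weights (0.324%). They became 0 (0% of all genes) with a block for row or for column or with only the arrays of the slide. Under a quantile scaling 1 member was called higher, as with the deposited matrix, where 0.58% and 0.53% of all genes were called in either direction. In the fits without hybrid replicate 1 or without replicate 2, which leave 1 hybrid array, calls in the higher direction also occurred. In the difference of effects the 2 (0 without them) became 1 with normexp, quantile scaling or without shared probes (0), 0 with a block for row or for column, and 0 to 5 with each array left out (0 to 3). With each array left out, 0 to 7 members were called in the R26Y comparison, with medians from -1.35 to -0.018, and 0 to 7 between GFAP-Cre and R26Y hybrids, with medians from -0.012 to 1.47. The GFAP-Cre median was -0.30 with slide row as a block.

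Replicate numbers did not pair the samples: same-numbered arrays of different groups deviated with correlations between -0.071 and 0.073. With the replicate block 2 of the 80 members other than Rps27a and Rpl31 were called in the FoxA2-Cre comparison, where 0.33% of all genes were. In the difference of effects 0 were (limma, 10 of the 80 at an unadjusted p under 0.05, where 5.2% of all genes were).

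Uncalled values changed sign as follows; the cause was not tested. FoxA2-Cre against unfused: Rps3 read -0.10 with the matrix and -0.82 with the mean of probes, and Mrpl14 0.30 with normexp. R26Y against pooled unfused: Rps27a read 0.10 with the 75th percentile over all probes and 0.10 with the mean of probes, and Rpl31 -0.14 with quantile scaling, -0.041 with the matrix, -1.33 with the mean of probes and -0.018 with slide row. Rpl21 read -0.10 with the matrix, -0.13 with the mean of probes and -0.16 without shared probes, and Rpl15 -0.48 without shared probes. With each array left out Rpl23a ran from -0.11 to 2.59 and Rps9 from -0.57 to 2.83. GFAP-Cre against pooled unfused: with the mean of probes Rps27a read 0.12, Rpl31 -0.21 and Rpl22 -0.89, and without shared probes Rpl22 read -2.13. With slide row Rpl31 read -0.063, Rps7 -0.48, Rps23 -0.30 and Rps9 0.57. With slide column Rpl39l read -0.39, Rps3a 0.0098 and Rpl32 0.89. Rpl10l read -0.42 with normexp and -0.47 with the matrix. With each array left out Rpl31 ran from -0.11 to 0.45, Rpl39l from -0.50 to 2.36, Rpl10l from -0.17 to 1.05, Rps3a from -1.86 to 0.0049 and Rps9 from -1.41 to 0.092. GFAP-Cre against R26Y hybrids: Rps27a read -0.23 with normexp, -0.31 with the 75th percentile over all probes, -0.12 with median scaling and -0.021 with slide column. Rpl31 read 0.35 with quantile scaling, 0.10 with the matrix, 1.13 with the mean of probes and 0.32 with slide column, and Rpl21 0.14 with the mean of probes and 0.17 without shared probes. With each array left out Rps27a ran from -0.10 to 0.21, Rpl31 from -0.33 to 0.24, Rps19 from -0.036 to 5.22 and Rpl23a from -2.50 to 0.20. In the difference of effects Rps14 ran from -0.14 to 4.04 with each array left out.

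The FoxA2-Cre arrays limit all of this: on them 36 to 75 of 82 members were above background, and each group has 2 arrays.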
